A study of Caenorhabditis elegans with 12 samples.

Results

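The C-type lectin family was taken as the genes whose symbol begins with clec- in the WBcel235 annotation, with the isoforms of each gene summed. This rule found 240 genes, with 237 different symbols, among 22063 genes in the files. Of the 240 members, 96 (40%) had enough counts to be tested, against 66.1% of all genes. The RNA came from whole adult Caenorhabditis elegans grown at a constant temperature on ample Escherichia coli OP50, in 4 groups of 3 biological replicates each. These were wild-type N2 and the fog-2 mutant strain JK574, which carries the fog-2(q71) allele. Both were taken as young adults in which no eggs were visible (day 1) and as adults on day 6. By day 6 the wild-type animals were past egg laying. Each library was made from a pooled population of synchronized worms and from polyA RNA. XX animals of the mutant make no sperm of their own, so wild type on day 1 was the only group in which self-sperm was present, and the strain is kept going by its males. The study asked which changes come with age, which come with the absence of sperm, and whether the effect of age differs between the genotypes.

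C-type lectin-like domains are a protein fold that in many animals binds sugars with the help of calcium, and the nematode family that carries it is one of the largest in the worm genome. Many of its members are predicted to be secreted, many are expressed in the intestine, and infection with a given pathogen raises a particular subset of them, in part through the p38 MAP kinase cascade that ends in PMK-1. The biochemical activity of most members is not known. No pathogen was given here, and the only bacterium was the food.

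The libraries held between 21162566 and 38776021 estimated counts. Levels are given below in CPM, read counts scaled to library size and TMM factors, which compare 1 gene between libraries, and in TPM, which also take transcript length into account, where genes are compared with each other. The fog-2 transcript lay between 44.5 and 58.5 CPM in the 6 wild-type libraries and between 3.2 and 4.86 CPM in the 6 mutant libraries, so this gene went with the genotype labels. Replicate 2 of wild type on day 1 stood apart from the other replicates of its group. Its 42 sperm markers summed to 283 CPM, against 7.3 and 13.8 CPM, and its 5 hypodermis markers to 1316 CPM, against 458 and 303 CPM. Nearly all of the hypodermis sum on day 1 came from 1 gene, col-19 (on the means, 688 of 692 CPM in wild type and 1085 of 1089 CPM in fog-2). The sperm markers summed to 8.38 to 12.7 CPM in wild type on day 6, 6.96 to 28.2 CPM in fog-2 on day 1 and 8.3 to 8.82 CPM in fog-2 on day 6, so the sums of replicates 1 and 3 of wild type on day 1 lay within the range of the groups without self-sperm. Replicate 2 of fog-2 on day 1 also stood apart from its group, with 28.2 CPM of sperm markers against 7.79 and 6.96 CPM and 553 CPM of hypodermis markers against 1338 and 1375 CPM. The 8 markers of the male soma summed to 0.505 to 1.04 CPM in wild type and 1.19 to 1.39 CPM in fog-2 on day 1, and to 3.39 to 3.46 and 3.25 to 3.35 CPM on day 6. Most of the day 6 sums came from 1 gene, try-5 (on the means, 2.18 of 3.42 CPM in wild type and 2.8 of 3.29 CPM in fog-2). Of the 3 markers tested, 2 rose with age in wild type, and in fog-2 1 rose and 1 fell. The fall was that of lov-1, from 0.109 to 0.00826 CPM on the means.

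The family was spread over the 6 chromosomes, with 86 members on V, 53 on IV, 48 on II, 36 on I, 14 on III and 3 on X. Its expression was concentrated in few members. On the mean TPM over the 12 libraries, 9 members reached 100 TPM, 20 lay between 10 and 100 TPM, 34 between 1 and 10 TPM, and 177 below 1 TPM. The 10 most abundant members were clec-87 at 1110 TPM, clec-88 at 434 TPM, clec-63 at 291 TPM, clec-91 at 286 TPM, clec-266 at 177 TPM, clec-50 at 175 TPM, the 2 genes named clec-209 at 166 TPM each, clec-1 at 102 TPM and clec-146 at 82.4 TPM. The 5 most abundant members of a library held between 62% and 74.8% of the summed TPM of the family. The first in every library was clec-87, except in replicate 3 of wild type on day 1, where clec-63 was first. The 2 genes named clec-209 (sequence names F56A4.2, chrV:2459637-2460893, and Y19D10A.9, chrV:2351676-2352932) had equal values in every library, so their reads could not be told apart, and each value is the equal share that the quantification gave to 1 copy. Of the 144 members that were not tested, 11 had no count in any library, 130 had between 1 and 100 counts over all 12 libraries, and clec-73, clec-79 and clec-123 had 154, 121 and 134 counts.

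Of the 4 most abundant members, clec-87, clec-88 and clec-91 varied little. The gene clec-87 (chrI:10184462-10185520) was at 1255, 1030 and 1086 CPM in wild type on day 1 and at 1122, 1078 and 1036 CPM on day 6. In fog-2 it was at 1368, 1629 and 1411 CPM on day 1 and at 1401, 1323 and 1254 CPM on day 6. The libraries of the age groups overlapped within each genotype, and those of the genotypes did not at either age. With age it changed by -0.06 on the log2 scale in wild type (SE 0.10, adjusted p = 0.66) and by -0.15 in fog-2 (SE 0.10, adjusted p = 0.28). It was higher in fog-2 by 0.39 on day 1 (SE 0.10, adjusted p = 0.032) and by 0.30 on day 6 (SE 0.10, adjusted p = 0.069). The day 1 call was lost without replicate 2 of fog-2 on day 1, and the day 6 call was lost without any 1 of 5 libraries, with values over all left-out libraries of 0.30 to 0.48 and 0.26 to 0.34. The gene clec-88 (chrII:6365722-6367002) had group means of 418 ± 69.1, 420 ± 18.3, 511 ± 30.4 and 457 ± 7.57 CPM (SD, n = 3) in wild type on day 1 and day 6 and in fog-2 on day 1 and day 6, and only its genotype difference on day 1 passed the test (0.29, SE 0.10, adjusted p = 0.097). This call was lost in 11 of the 12 fits that each left out a library (0.19 to 0.43), and the groups overlapped. The means of clec-91 (chrI:9126140-9127101) were 193 ± 38.1, 188 ± 12.5, 236 ± 17.3 and 223 ± 9.68 CPM (SD, n = 3) in the same order, and it was called in no comparison.

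**Figure D1:**
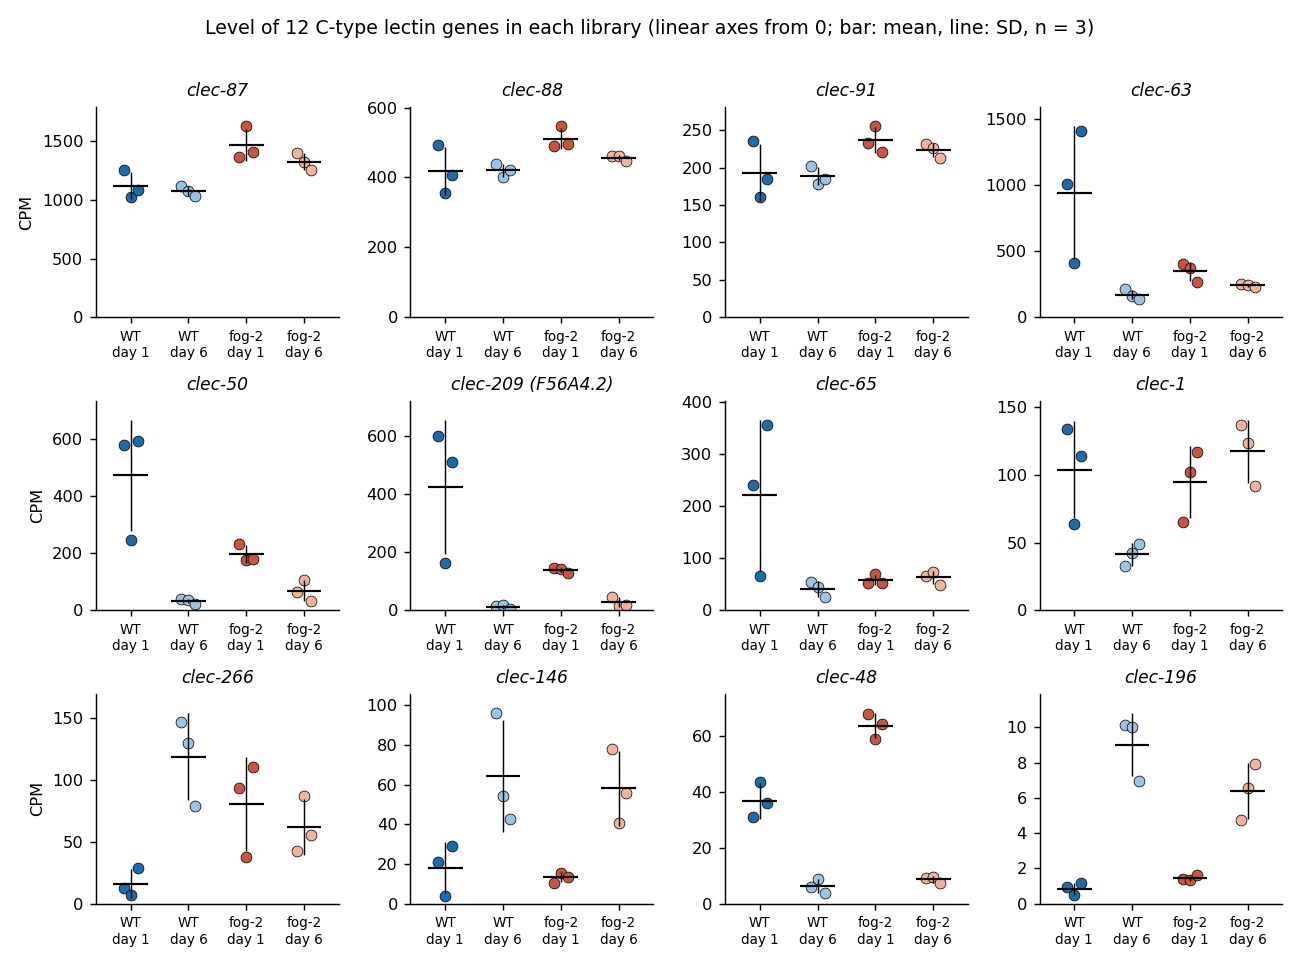
CPM of 12 members in each of the 12 libraries, 1 panel for each gene, on linear axes that start at 0. Points are libraries, horizontal bars are group means and vertical lines are SDs (n = 3). The panels of clec-87, clec-88 and clec-91 are nearly level, those of clec-63, clec-50, clec-209 and clec-65 are highest in wild type on day 1, with replicate 2 the lowest of its group, and clec-266, clec-146 and clec-196 are lowest there or on day 1 of both genotypes.

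Over all members, the mean summed CPM was 5348 ± 1740 and 2645 ± 210 in wild type on day 1 and day 6. In fog-2 it was 3918 ± 177 and 3230 ± 267 (SD, n = 3). The mean summed TPM was 4535, 3269, 3754 and 3228 in that order. Replicate 2 of wild type on day 1, at 2921 TPM, was below every wild-type day 6 library (3478, 3283 and 3045 TPM). The 3 genes above were left out of the next sums because they varied little. Without them, the members' summed CPM was 4274, 1797 and 4769 in wild type on day 1 and 1097, 978 and 800 on day 6. In fog-2 the sum was 1810, 1673 and 1622 on day 1 and 1305, 1360 and 1008 on day 6. Wild type on day 1 was therefore the highest and the most variable group (3613 ± 1592 CPM, SD, n = 3), and its replicate 2 lay among the fog-2 libraries of day 1. Among the 96 tested members, the highest group mean was in wild type on day 1 for 50, in wild type on day 6 for 20, in fog-2 on day 1 for 15 and in fog-2 on day 6 for 11. The same count over all genes was not made, so these numbers do not set the family apart from other genes. In RNA from whole animals, fewer cells of a type and less RNA per cell cannot be told apart. Of 10 intestine markers listed, 9 were measured, and they summed to 3446 to 5544 CPM in wild type on day 1, 500 to 566 CPM on day 6, 1519 to 2106 CPM in fog-2 on day 1 and 561 to 875 CPM on day 6. Of these 9 markers, 8 fell with age in wild type and 5 in fog-2, 5 were lower in fog-2 on day 1, and 5 had a higher age change in fog-2 than in wild type. The marker called in none of these comparisons was elt-2, the GATA factor that defines the intestine, at means of 7.56, 5.99, 5.94 and 5.1 CPM in the same order (adjusted p between 0.58 and 0.93). The 5 hypodermis markers summed to 303 to 1316 CPM in wild type and 553 to 1375 CPM in fog-2 on day 1 and to 9.11 to 14.2 and 16.1 to 25.8 CPM on day 6, although 3 of them fell and 2 rose with age in wild type. These sums were mostly col-19, at means of 688, 1085, 6.36 and 20 CPM in the order just given. The 4 body muscle markers summed to 422 to 1340, 1150 to 2250, 267 to 352 and 194 to 227 CPM in the same order. Among them unc-54 and unc-15 fell with age in wild type, hlh-1 rose (2.34, adjusted p = 0.0003) and myo-3 was not called (-0.41, adjusted p = 0.31). In fog-2, 3 of the 4 fell with age and hlh-1 rose (1.41, adjusted p = 0.0058). The part of these tissues in the members' changes was not tested.

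**Figure D2:**
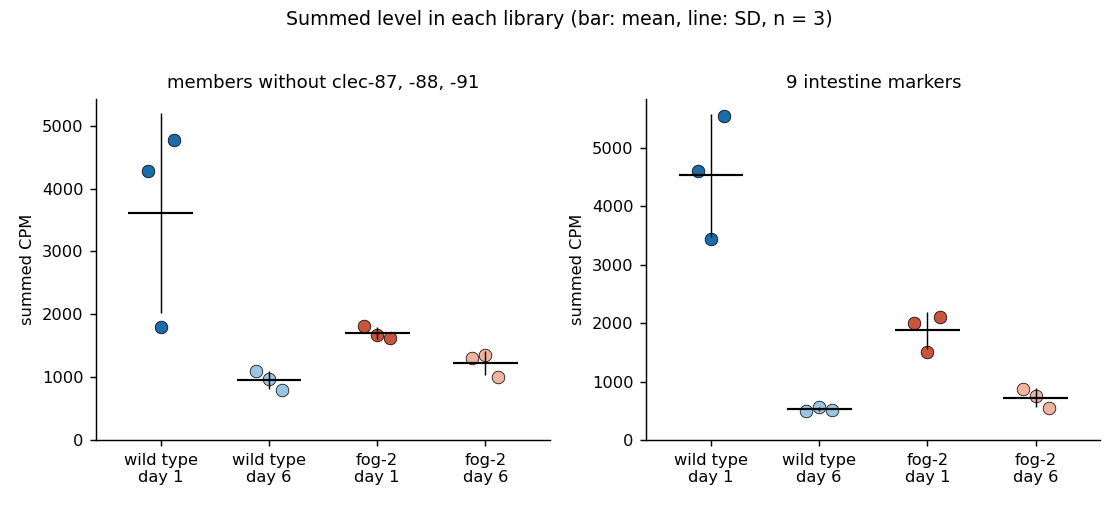
Summed CPM in each library of the members without clec-87, clec-88 and clec-91 (left) and of 9 intestine markers (right), on linear axes from 0. Points are libraries, bars are means and lines are SDs (n = 3). Both sums are highest in wild type on day 1 and lower in the other 3 groups, and in the left panel replicate 2 of wild type on day 1 is at 1797 CPM.

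Age in wild type was the comparison with the most calls. Between day 1 and day 6, 44 of the 96 tested members fell and 16 rose at adjusted p under 0.1 in edgeR's quasi-likelihood test, which is 45.8% and 16.7% of them. Over all 14577 genes tested, 25.4% fell and 23.4% rose. The median change was -0.88 on the log2 scale for the members and -0.00 for all genes, and 66 members (68.8%) were below 0. The changes of the 44 that fell ran from -5.20 to -0.66 with a median of -2.46, and 33 of them were past -2. With libraries scaled by their totals only, the median of all genes moved to 0.42 and that of the members to -0.44. The split became 39 lower and 25 higher among the members, where 12.2% of all genes were lower and 52.2% higher. Limma on log2(TPM + 0.5), in which the median of all genes was 0.37, gave 39 members lower and 24 higher, against 12.3% and 52.0% of all genes. Leaving out any 1 library gave 40 to 46 lower and 14 to 18 higher. All 33 of the named calls in this comparison were kept without any 1 library, but many named members were picked for large changes without overlap. Outside the named members, the calls of clec-12, clec-26, clec-55, clec-82, clec-119, clec-145, clec-160, clec-170 and clec-178 were lost without 1 or more libraries. Those of clec-119 and clec-160 were each lost in 8 of the 12 fits that left out a library.

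The largest falls included some of the most abundant members of wild type on day 1. Each copy of clec-209 was at 600, 162 and 510 CPM on day 1 and at 15.1, 18.8 and 4.65 CPM on day 6 in wild type. In fog-2 each copy was at 146, 141 and 130 CPM on day 1 and at 47.2, 17 and 18.5 CPM on day 6. Every day 1 library was above every day 6 library in either genotype. The log2 fold change was -5.05 in wild type (SE 0.64, adjusted p = 0.00018) and -2.34 in fog-2 (SE 0.57, adjusted p = 0.0097). The neighbouring genes clec-49 (chrV:19748961-19751226) and clec-50 (chrV:19752399-19755368) fell together. Wild-type clec-50 was at 579, 248 and 594 CPM on day 1 and at 39, 36.5 and 23.8 CPM on day 6. Mutant clec-50 was at 234, 176 and 181 CPM and at 66.0, 108 and 34.6 CPM. It fell in wild type (-3.84, SE 0.44, adjusted p = 9e-05) and in fog-2 (-1.5, SE 0.40, adjusted p = 0.015), with no overlap between ages. For clec-49, which worms need for full defence against Serratia marcescens, the wild-type values were 43.3, 26.8 and 37.1 CPM on day 1 and 1.08, 2.06 and 0.917 CPM on day 6. It fell in wild type (-4.72, SE 0.34, adjusted p = 6.5e-06) and in fog-2 (-3.15, SE 0.31, adjusted p = 6.5e-05), where the means went from 33.7 ± 5 to 3.80 ± 1.02 CPM (SD, n = 3).

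Further members fell by 4 or more on the log2 scale in wild type from lower levels. On the X chromosome, clec-265 (chrX:3031783-3033117) was at 24.9, 5.16 and 14.0 CPM on day 1 and at 0.278, 0.322 and 0.673 CPM on day 6, a fall (-5.10, SE 0.60, adjusted p = 0.00012). The values of clec-172 were 1.08, 0.741 and 5.64 CPM on day 1 and 0.0927, 0.0644 and 0.0306 CPM on day 6 (-5.20, SE 1.01, adjusted p = 0.002), so that replicate 3 held most of its day 1 counts. The ages did not overlap for either gene. The means of clec-53 went from 6.10 ± 2.09 to 0.198 ± 0.201 CPM (-4.91, SE 0.66, adjusted p = 0.00024), and those of clec-227 from 2.85 ± 1.77 to 0.137 ± 0.0987 CPM (-4.33, SE 0.64, adjusted p = 0.00041). With a change of -4.29 (SE 0.77, adjusted p = 0.0013), clec-206 went from 1.89 ± 1.09 to 0.0942 ± 0.0339 CPM. These 3 genes also fell with age in fog-2 (-2.48, -2.93 and -3.54).

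A smaller group of members rose with age in wild type, over a range of 1.13 to 8 with a median of 2.90. On the X chromosome, clec-266 (chrX:6617393-6622915) was the most abundant of them, at 12.4, 6.84 and 29.1 CPM on day 1 and at 147, 130 and 79.1 CPM on day 6 (2.90, SE 0.54, adjusted p = 0.0016). In fog-2 it was at 93.6, 37.8 and 110 CPM on day 1 and at 42.6, 86.6 and 55.8 CPM on day 6, where the ages overlapped (-0.38, SE 0.50, adjusted p = 0.6). The values of clec-146 were 21.2, 3.98 and 29.1 CPM on day 1 and 96.2, 54.4 and 42.6 CPM on day 6 in wild type (1.84, SE 0.55, adjusted p = 0.021). It rose likewise in fog-2 (2.13, SE 0.56, adjusted p = 0.014). Its neighbour clec-145 rose by 1.13 and 1.15 in wild type and fog-2, although the wild-type ages overlapped and that call was lost without any 1 of 6 libraries (0.70 to 1.66). The gene clec-196 (chrIV:17276956-17277748) was at 0.935, 0.472 and 1.15 CPM on day 1 and at 10.1, 10 and 6.94 CPM on day 6 in wild type (3.43, SE 0.33, adjusted p = 3.2e-05). The fog-2 libraries were at 1.38, 1.36 and 1.60 CPM and at 4.74, 6.58 and 7.90 CPM (2.15, SE 0.31, adjusted p = 0.00053). Neither genotype had overlapping ages for this gene. The same held for clec-264, whose means went from 2.02 ± 1.09 to 9.46 ± 1.23 CPM in wild type (2.25, SE 0.34, adjusted p = 0.00042) and from 1.82 ± 0.195 to 6.07 ± 1.39 CPM in fog-2 (1.73, SE 0.33, adjusted p = 0.0025).

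Other members rose with age in wild type from a very low level. In wild type, clec-78 (chrIV:3989102-4014235) was at 0.180, 0.236 and 1.78 CPM on day 1 and at 8.77, 19.8 and 11.1 CPM on day 6 (4.31, SE 0.73, adjusted p = 0.00093). In fog-2 its means were 0.896 ± 0.323 and 2.50 ± 0.866 CPM (1.47, SE 0.66, adjusted p = 0.11). Wild-type clec-180 went from 0.208 ± 0.119 to 1.93 ± 1.17 CPM (3.27, SE 0.59, adjusted p = 0.0014), and clec-17 from 0.126 ± 0.190 to 1.45 ± 0.504 CPM (3.78, SE 0.95, adjusted p = 0.0087). The value of clec-17 was 6.10 without replicate 3 of day 1 and lay between 3.11 and 6.10 over the left-out libraries. No count of clec-42 (chrV:18191412-18194168) was found in wild type on day 1, where 3 counts over the group would be 0.0401 CPM. On day 6 it was at 0.463, 0.612 and 1.99 CPM, which is at least 25.5-fold higher. The same was seen for clec-121, at 0.615 CPM on day 6, which is at least 15.3-fold higher. The fitted changes of these 2 genes, of which 8 is the upper end of the range above, depend on the prior count.

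In fog-2, 36 of the 96 members fell and 13 rose with age (37.5% and 13.5%), where 21.1% of all genes fell and 18.0% rose. The median change was -0.57 for the members and -0.03 for all genes. The called changes ran from -3.63 to -0.61, with 16 past -2, and from 1.13 to 3.45, with 5 past 2. Among the 13 that rose, the count was 8 without replicate 3 of fog-2 on day 1 and lay between 10 and 18 without any other library. Of the 22 named calls, 19 were kept without any 1 library, the exceptions being clec-187 (-1.38 to -0.85 over the left-out libraries, lost without replicate 3 of either fog-2 age), clec-86 (-1.76 to -1.11, lost without replicate 3 of fog-2 on day 1 or replicate 2 of fog-2 on day 6) and clec-75. The largest falls among the named members were those of clec-51 (5.81 ± 1.93 to 0.473 ± 0.179 CPM, -3.63, SE 0.52), clec-206 (-3.54, SE 0.68), clec-49, clec-265 (4.08 ± 1.2 to 0.473 ± 0.179 CPM, -3.12, SE 0.57), clec-227 and clec-48.

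The gene clec-48 (chrV:18158026-18159614) was at 31, 43.7 and 36.0 CPM in wild type on day 1 and at 5.84, 8.86 and 3.88 CPM on day 6. The fog-2 values were 68.1, 59.0 and 64.4 CPM on day 1 and 9.06, 9.72 and 7.43 CPM on day 6. It fell with age in wild type (-2.58, SE 0.25, adjusted p = 3.6e-05) and in fog-2 (-2.87, SE 0.25, adjusted p = 3.2e-05). It was higher in fog-2 on day 1 (0.79, SE 0.24, adjusted p = 0.056), a call that was lost without any 1 of 4 day 1 libraries (0.68 to 0.93). A fall that passed the test in fog-2 but not in wild type was that of clec-47. It was at 6.33, 7.61 and 8.46 CPM on day 1 and at 8.40, 4.19 and 4.52 CPM on day 6 in wild type (-0.39, SE 0.31, adjusted p = 0.35). In fog-2 it went from 16.5, 24.2 and 13.3 CPM to 8.42, 5.26 and 5.38 CPM (-1.51, SE 0.31, adjusted p = 0.0044). Its age change was not shown to differ between the genotypes (-1.12, SE 0.44, adjusted p = 0.13). The gene clec-62 was at 16.4, 17.2 and 10.8 CPM in fog-2 on day 1 and at 45.2, 60 and 41.5 CPM on day 6, a rise of 1.72 (SE 0.42, adjusted p = 0.0097). The wild-type ages overlapped (36.0 ± 22.3 and 35.3 ± 5.13 CPM). A rise with age was called for clec-75 in wild type (2.16, SE 0.63, adjusted p = 0.018) and in fog-2 (1.38, SE 0.57, adjusted p = 0.089). The former was 3.37 without replicate 3 of wild type on day 1, and the latter was lost in 9 of the 12 fits that each left out a library (1.12 to 1.66).

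The 2 age comparisons share no library. Of the 44 members that fell in wild type, 27 also fell in fog-2, which is 61.4% of the wild-type list and 75% of the fog-2 list of 36. Over all genes tested, 54.7% of those that fell in wild type also fell in fog-2. Of the 16 that rose in wild type, 8 also rose in fog-2, which is 50% of the wild-type list and 61.5% of the fog-2 list of 13, against 41.9% of the genes that rose in wild type. No member was called in opposite directions, in edgeR at adjusted p under 0.1 or at an unadjusted p under 0.05 (0 of 96 each) or in DESeq2 (0), while limma on log2(TPM + 0.5) called 1 in opposite directions. For age in fog-2, that fit called 13 members higher and 34 lower, and 18.6% and 16.7% of all genes.

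**Figure D3:**
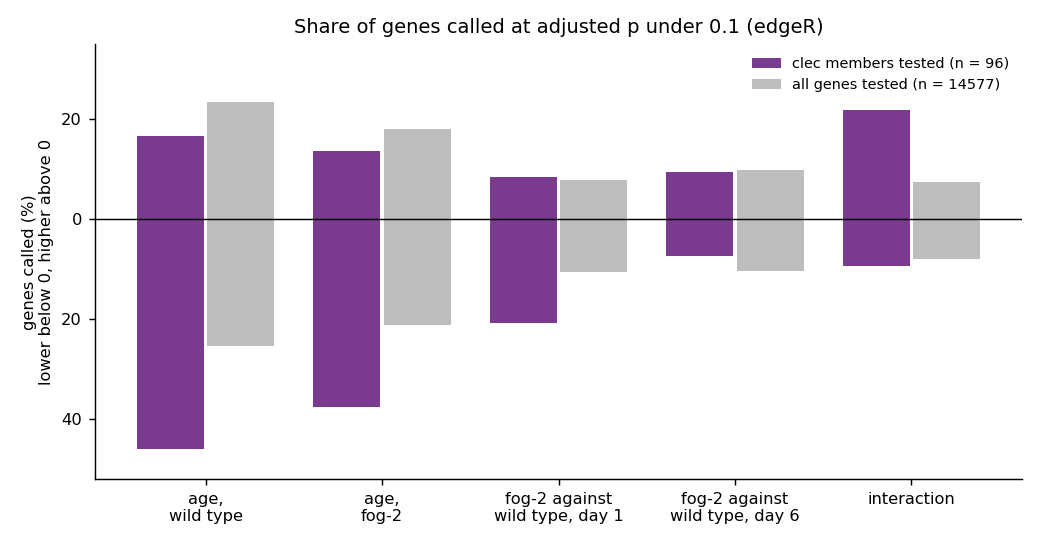
Share of the 96 tested members (purple) and of all 14577 genes tested (grey) called at adjusted p under 0.1 in each comparison, with genes called higher drawn upward and genes called lower drawn downward, in percent. The members' bars are longest downward for age in wild type (45.8%) and age in fog-2 (37.5%), and on day 6 their bars are near those of all genes (9.38% and 7.29% beside 9.83% and 10.4%).

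On day 1, fog-2 animals differed from wild type mainly by lower members. Of the 96 tested, 20 were lower (20.8%) and 8 higher (8.33%), where 10.6% of all genes were lower and 7.73% higher. The median difference was -0.33 for the members and -0.01 for all genes. The differences of the 20 ran from -2.60 to -0.96, with a median of -1.57. This count rested on single libraries more than those for age did. It was 13 and 9 without replicates 1 and 3 of wild type on day 1, and 13 without replicate 2 of wild type on day 6. It was 9, 6 and 6 without replicates 1, 2 and 3 of fog-2 on day 1, and 30 without replicate 2 of wild type on day 1, which stood apart. The count of 8 was 3 and 5 without replicates 1 and 3 of fog-2 on day 1. Of the 19 named calls, 4 were kept without any 1 library, and limma on log2(TPM + 0.5) gave 11 lower and 9 higher, where 5.94% of all genes were lower and 11.7% higher.

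The most abundant of the lower members was clec-63 (chrII:12895638-12897446), at 1008, 409 and 1404 CPM in wild type and at 399, 375 and 266 CPM in fog-2 on day 1. On day 6 it was at 211, 158 and 141 CPM in wild type and at 251, 241 and 226 CPM in fog-2. The day 1 libraries of the genotypes did not overlap, although replicate 2 of wild type came close to fog-2. The difference on day 1 was -1.44 (SE 0.34, adjusted p = 0.026), and without replicate 3 of fog-2 on day 1 the call was lost (-1.80 to -1.05 over the left-out libraries). With age it fell in wild type (-2.47, SE 0.36, adjusted p = 0.00035), and in fog-2 it changed by -0.54 (SE 0.34, adjusted p = 0.26). The 4 calls kept without any 1 library were those of clec-97, clec-66, clec-47 and clec-266. The values of clec-97 (chrI:11152704-11154330) were 23.1, 9.10 and 18.8 CPM in wild type and 2.90, 2.67 and 3.62 CPM in fog-2, a difference of -2.47 (SE 0.51, adjusted p = 0.016). For clec-66 they were 28.8, 9.37 and 28.2 CPM and 6.60, 6.32 and 6.92 CPM (-1.74, SE 0.35, adjusted p = 0.015). In the other direction, clec-266 was higher in fog-2 by 2.34 (SE 0.53, adjusted p = 0.023) and clec-47 by 1.27 (SE 0.31, adjusted p = 0.03), from the values given above, and in neither did the genotypes overlap. From lower levels, clec-61 went from 0.147 ± 0.0814 CPM in wild type to 0.934 ± 0.367 CPM in fog-2 (2.72, SE 0.72, adjusted p = 0.038), a call lost without replicate 1 of fog-2 on day 1 (2.35 to 3.09 over the left-out libraries).

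Some calls on day 1 were made although the libraries of the genotypes overlapped. The gene clec-65 was at 240, 66.8 and 355 CPM in wild type and at 53.3, 69.8 and 52.5 CPM in fog-2 (-1.91, SE 0.47, adjusted p = 0.03), with replicate 2 of wild type below replicate 2 of fog-2. The same library lay within the fog-2 range for clec-62 and clec-67 and below it for clec-85 (-1.28, -1.64 and -1.48, adjusted p = 0.074, 0.086 and 0.083). The call of clec-65 was lost without replicate 3 of fog-2 on day 1 (-2.34 to -1.40 over the left-out libraries), and those of clec-62, clec-67 and clec-85 without 7, 9 and 9 of the 12 libraries (-1.69 to -0.81, -2.09 to -1.22 and -1.94 to -1.13). The differences of clec-50 (-1.27, SE 0.40, adjusted p = 0.064), clec-209 (-1.61, SE 0.55, adjusted p = 0.084), clec-172 (-2.33, SE 0.80, adjusted p = 0.085), clec-265 (-1.85, SE 0.50, adjusted p = 0.041) and clec-54 (-1.96, SE 0.51, adjusted p = 0.035) had no overlap. They were lost without 5, 9, 9, 3 and 1 of the 12 libraries, with ranges of -1.58 to -1.09, -2.0 to -1.27, -2.77 to -0.93, -2.26 to -1.23 and -2.35 to -1.60.

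On day 6 the members were called between the genotypes about as often as other genes in edgeR's test, but not in limma on TPM. Of the 96, 9 were higher in fog-2 and 7 lower (9.38% and 7.29%), where 9.83% of all genes were higher and 10.4% lower, and the medians were 0.09 for the members and -0.02 for all genes. The count of 9 was 18 without replicate 2 of wild type on day 1, and 4 without replicate 2 of wild type on day 6. It was 4 and 3 without replicates 1 and 2 of fog-2 on day 6. The count of 7 was 3 and 4 without replicates 2 and 3 of wild type on day 6, and 3 and 4 without replicates 1 and 2 of fog-2 on day 6. With limma on log2(TPM + 0.5) there were 7 members higher and 11 lower, where 2.61% of all genes were higher and 24.5% lower and the median of all genes was -0.21. The gene clec-1 (chrV:5700154-5701080) was at 32.8, 42.2 and 49.3 CPM in wild type and at 137, 124 and 91.8 CPM in fog-2 on day 6 (1.51, SE 0.29, adjusted p = 0.012), while on day 1 it was at 134, 64.0 and 114 CPM and at 65.1, 102 and 117 CPM. It fell with age in wild type (-1.33, SE 0.29, adjusted p = 0.0038), and in fog-2 the change was 0.31 (SE 0.28, adjusted p = 0.44). The values of clec-210 on day 6 were 0.247, 0.451 and 0.275 CPM in wild type and 2.82, 1.33 and 1.78 CPM in fog-2 (2.59, SE 0.47, adjusted p = 0.01). Lower in fog-2 on day 6 were clec-17, at 1.05, 1.29 and 2.02 CPM in wild type and at 0, 0 and 0.0495 CPM in fog-2 (-5.99, SE 1.11, adjusted p = 0.011). So were clec-180 (-2.46, SE 0.54, adjusted p = 0.017), clec-78 (-2.40, SE 0.64, adjusted p = 0.034) and clec-86 (2.34 ± 1.19 and 0.578 ± 0.255 CPM, -2.0, SE 0.46, adjusted p = 0.021). Of the 12 named calls, 6 were kept without any 1 library, and that of clec-78 was lost without replicate 2 of wild type or replicate 1 of fog-2 on day 6 (-2.62 to -1.99).

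The age change itself differed between the genotypes for 30 of the 96 members. In 21 of them (21.9%) the change in fog-2 minus that in wild type was above 0, and in 9 (9.38%) below 0, where 7.35% and 7.89% of all genes were called in these directions. The median difference was 0.30 for the members and 0.02 for all genes. The count of 21 was 11 and 32 without replicates 1 and 2 of wild type on day 1, and 11 without replicate 2 of wild type on day 6. It was 12 and 6 without replicates 1 and 3 of fog-2 on day 1, and 8 and 11 without replicates 1 and 2 of fog-2 on day 6. The count of 9 fell to between 2 and 6 without any 1 library other than replicate 3 of wild type on day 1, without which it was 10. Limma on log2(TPM + 0.5) gave 17 above and 14 below, where 2.59% and 23.4% of all genes were called in these directions and the median of all genes was -0.30. Among the 22 named calls, those of clec-63, clec-266, clec-50, clec-1 and clec-180 were kept without any 1 library. Of the named calls, the largest positive difference was that of clec-209 (2.71, SE 0.79, adjusted p = 0.058). It was followed by clec-65 (2.53, SE 0.66, adjusted p = 0.044) and clec-97 (2.50, SE 0.71, adjusted p = 0.053). The calls of clec-209, clec-65 and clec-97 were lost without 4, 1 and 4 of the 12 libraries (2.08 to 3.10, 2.01 to 2.96 and 2.01 to 2.84). The named member clec-172 had a larger difference that was not called (3.87), and the 21 called in the whole family reached 4.79. The age change of clec-65 was -2.42 in wild type (SE 0.48, adjusted p = 0.0024) and 0.11 in fog-2 (SE 0.46, adjusted p = 0.88), where it was at 65.6, 74.4 and 49.5 CPM on day 6. For clec-63 the difference was 1.93 (SE 0.48, adjusted p = 0.038), for clec-50 2.33 (SE 0.56, adjusted p = 0.035) and for clec-1 1.64 (SE 0.40, adjusted p = 0.036). The differences below 0 included clec-266 (-3.28, SE 0.73, adjusted p = 0.028) and clec-180 (-3.55, SE 0.81, adjusted p = 0.031), whose fog-2 ages were at 0.427 ± 0.232 and 0.348 ± 0.0809 CPM.

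**Figure D4:**
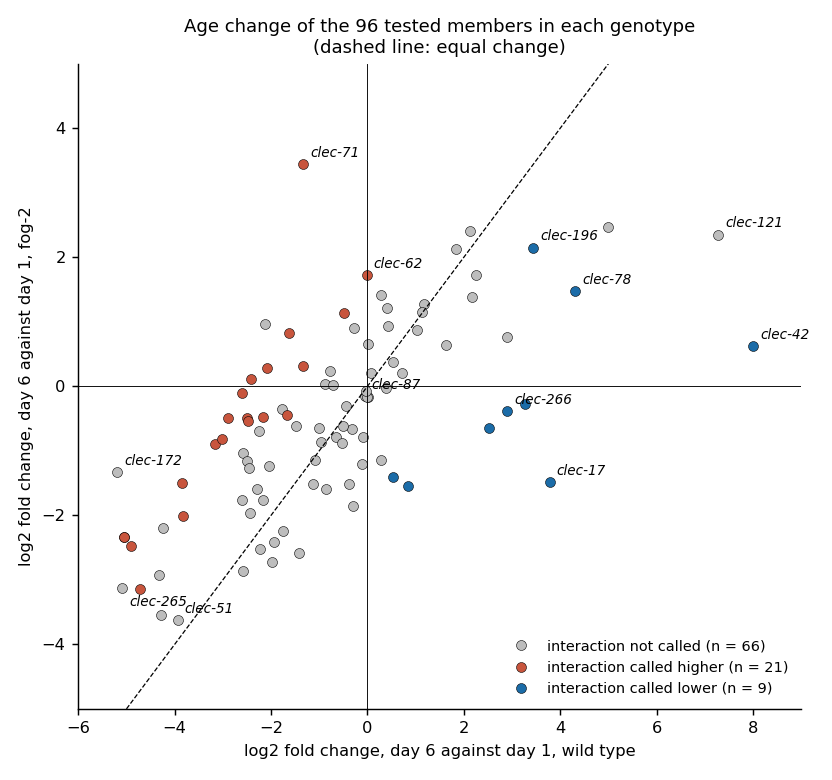
Age change of each of the 96 tested members in wild type (horizontal, log2 fold change of day 6 against day 1) and in fog-2 (vertical), with colour for the interaction call and a dashed line where both changes are equal. The 21 red points lie above the line and the 9 blue points below it, with clec-42 at 8 on the horizontal axis as the farthest point to the right.

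Members with a published role in defence did not move as a block. The gene clec-67, a target of the PMK-1 cascade, was at 17.6, 3.23 and 14.4 CPM in wild type on day 1 and at 0.494, 0.741 and 0.611 CPM on day 6 (-4.24, SE 0.65, adjusted p = 0.0005). In fog-2 it was at 4.25, 4.48 and 2.51 CPM and at 1.46, 0.678 and 0.372 CPM (-2.19, SE 0.61, adjusted p = 0.019). The p38-dependent gene clec-85 was at 89.2, 16.2 and 82.0 CPM on day 1 and at 29.3, 18.7 and 13.2 CPM on day 6 in wild type, where replicate 2 of day 1 lay within the day 6 range (-1.62, SE 0.51, adjusted p = 0.025). In fog-2 it was at 22.3 ± 2.59 and 39.4 ± 11 CPM (0.82, SE 0.50, adjusted p = 0.24), and its highest values were those of replicates 1 and 3 of wild type on day 1. The genes clec-4, clec-41 and clec-42 have been linked to infection with Bacillus thuringiensis, not necessarily in the same direction. In wild type clec-4 fell from 4.89, 1.31 and 2.19 CPM to 0.278, 0.354 and 1.13 CPM (-2.24, SE 0.59, adjusted p = 0.011). In fog-2 it fell from 1.53 ± 0.297 to 0.263 ± 0.0977 CPM (-2.53, SE 0.63, adjusted p = 0.011). By contrast, clec-41 was at 45.1, 48.5 and 86.3 CPM and 69.1, 79.4 and 68.5 CPM in wild type (0.28, SE 0.33, adjusted p = 0.54). It rose in fog-2 from 67.8, 29.1 and 33.5 CPM to 114, 150 and 85.3 CPM (1.42, SE 0.34, adjusted p = 0.0083). The gene clec-60, which is induced when worms are infected with Staphylococcus aureus or Microbacterium nematophilum, was at 0.180, 0 and 1.84 CPM on day 1 and 2.10, 1.93 and 3.94 CPM on day 6 in wild type (2.12, SE 1.05, adjusted p = 0.13). Its fog-2 means were 0.372 ± 0.410 and 1.97 ± 0.368 CPM (2.41, SE 1.06, adjusted p = 0.11). Neither passed the test, although no day 6 library was below a day 1 library. The defence gene clec-39 and the axon outgrowth gene clec-38 were not tested, with means between 0.00942 and 0.0521 CPM and between 0.0248 and 0.0688 CPM in the 4 groups.

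Many members lie next to each other. With starts within 20 kb counted as neighbours, 162 of the 240 members formed 48 runs of 2 to 13 genes, and 20 of these runs, with 57 members, held no tested member. In the 16 runs with at least 2 tested members, all tested members were below 0 with age in wild type in 10 runs and above 0 in 2. Of all tested members, 68.8% were below 0 in this comparison, and some members of the 10 runs were not called. A run on chromosome V (chrV:14469231-14482317) held clec-57, clec-227, clec-56, clec-54 and clec-55, and all 5 fell with age in wild type, with changes of -2.04, -4.33, -2.49, -2.89 and -2.13. For clec-55 the ages overlapped, at 0.612, 0.168 and 4.09 CPM on day 1 and 0.494, 0.290 and 0.275 CPM on day 6 (adjusted p = 0.07), and without replicate 3 of day 1 the change was -0.14 and the call was lost, as it was without any 1 day 6 library of wild type. Among them clec-54 was at 15.5, 5.36 and 20.0 CPM on day 1 and at 3.00, 1.16 and 1.31 CPM on day 6 (SE 0.53, adjusted p = 0.0015), and in fog-2 at 3.49 ± 1.2 and 2.48 ± 0.84 CPM. In a run on chromosome II (chrII:12893062-12906644), clec-63, clec-65 and clec-66 fell in wild type (-2.47, -2.42 and -3.83), and their neighbour clec-62 changed by -0.02 (adjusted p = 0.97). The neighbours clec-186 and clec-187 (chrIV:12866109-12871495) fell (-2.16 and -2.50), as did clec-51 and clec-52 (-3.94 and -2.60). The widest spread was in the run on chromosome IV (chrIV:3922165-4014235), where clec-67 fell (-4.24) while clec-75, clec-174 and clec-78 rose by 2.16, 2.52 and 4.31. Whether reads were shared between similar neighbours was not tested.

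**Figure D5:**
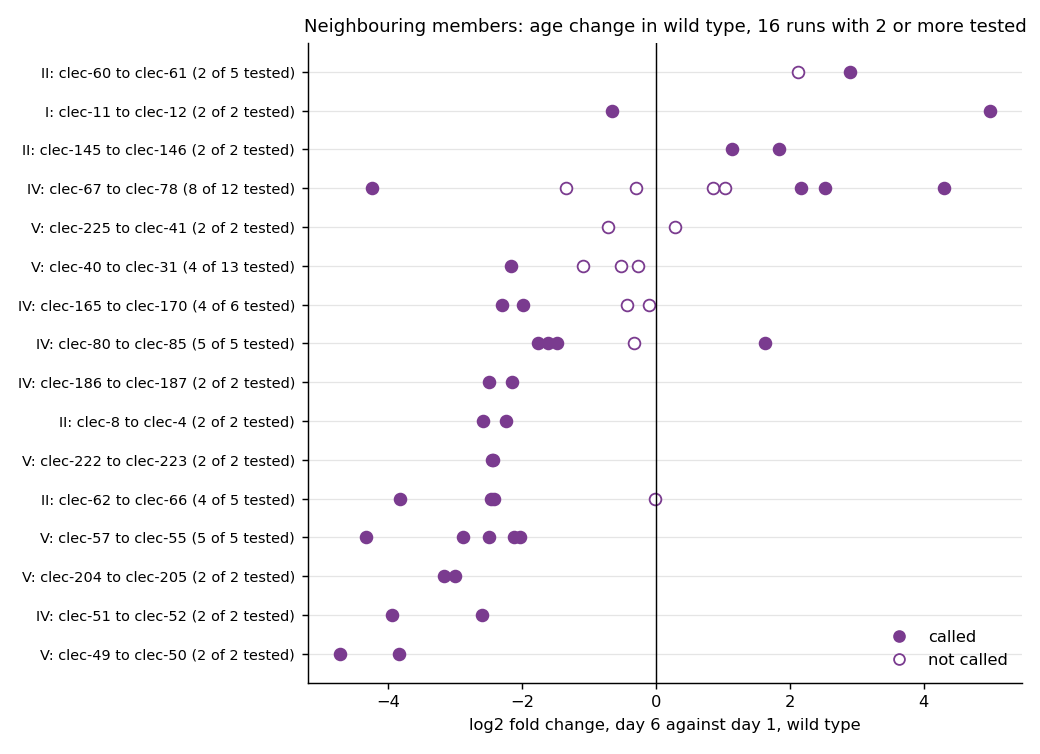
Log2 fold change of day 6 against day 1 in wild type of each tested member (points, filled where called) in the 16 runs of neighbouring members with at least 2 tested, 1 row for each run, with its chromosome and the number tested. In 10 rows every point lies left of 0, in 2 every point lies right of 0, and the run of clec-67 to clec-78 spans from -4.24 to 4.31.

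The calls were also counted by the length of the coding sequence, with no test between classes. Split by predicted protein length into 3 classes of 80 members, the 80 shortest (113 to 244 residues) had 22 tested members, of which 5 fell (22.7%) and 2 rose (9.09%) with age in wild type, with a median of -0.19. The middle class (244 to 384 residues) had 30 tested, of which 22 fell (73.3%) and 2 rose (6.67%), with a median of -2.16. The longest (384 to 3513 residues) had 44 tested, of which 17 fell (38.6%) and 12 rose (27.3%), with a median of -0.37. Over all genes tested, 25.4% fell and 23.4% rose. Thus 22 of the 44 falling members were of middle length and 12 of the 16 rising members were in the longest class.

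The regulators and the other effectors of innate immunity were read beside the lectins. The 20 listed immune regulators, all tested, hold genes of the p38 cascade and others such as bar-1, egl-5 and daf-16. With age in wild type, 9 of them rose and 3 fell (45% and 15%, where 23.4% and 25.4% of all genes did). In fog-2, 2 rose and 5 fell (10% and 25%, against 18.0% and 21.1%), and the medians were 0.20 and -0.06. Between the genotypes, 1 was higher and 2 lower in fog-2 on day 1 (5% and 10%, against 7.73% and 10.6%). On day 6, 0 were higher and 7 lower (35%, against 10.4% of all genes). The difference in age change was above 0 for 0 and below 0 for 3 of the 20 (15%, against 7.89%), with a median of -0.36. Both counts of 0 were by edgeR's test and were also 0 at an unadjusted p under 0.05, in DESeq2 and in limma on log2(TPM + 0.5). Of the cascade genes, tir-1 and pmk-2 rose with age in wild type (1.15 and 0.61, adjusted p = 0.016 and 0.021). In the same comparison atf-7 fell (-0.28, adjusted p = 0.012), and nsy-1 and sek-1 were not called (0.10 and -0.07, adjusted p = 0.66 and 0.67). Also among the 9 that rose were bar-1, egl-5, vhp-1, nipi-3 and cebp-1. The kinase gene pmk-1 was at 17 ± 0.695 and 18.6 ± 1.27 CPM in wild type (0.13, SE 0.11, adjusted p = 0.37) and fell in fog-2 from 20.6 ± 0.924 to 15.9 ± 1.07 CPM (-0.37, SE 0.11, adjusted p = 0.021), and its age change differed between the genotypes (-0.50, SE 0.15, adjusted p = 0.065). Of 87 other antimicrobial effectors (lysozymes, saposin-like proteins, caenacins, thaumatins and infection-response genes), 71 were tested. Of these, 23 rose and 27 fell with age in wild type (32.4% and 38%) and 19 rose and 15 fell in fog-2 (26.8% and 21.1%), with medians of 0.06 and 0.23, beside the shares of all genes just given. On day 1, 3 of the 71 were higher and 12 lower in fog-2 (4.23% and 16.9%, against 7.73% and 10.6% of all genes, median -0.60). On day 6, 12 were higher and 5 lower (16.9% and 7.04%, against 9.83% and 10.4% of all genes, median -0.02). The difference in age change was above 0 for 16 (22.5%, against 7.35% of all genes) and below 0 for 0 of the 71 by edgeR's test, with a median of 0.57. It was below 0 for 2 at an unadjusted p under 0.05, for 0 in DESeq2 and for 3 in limma on log2(TPM + 0.5).

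Of the 96 tested members, 20 were called in no comparison, among them clec-91, clec-90, clec-147 and clec-190. The share of all tested genes called in no comparison was not counted. The gene clec-90 had means of 8.50, 8.44, 8.35 and 7.46 CPM in wild type on day 1 and day 6 and in fog-2 on day 1 and day 6, and clec-190 of 22.8, 30.5, 19.4 and 37.3 CPM.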

How the data were processed

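The deposited files hold, for each library and isoform, estimated counts and TPM that the authors made with kallisto in single-end mode (WBcel235 per the labels, versions not given in the sources used here). Estimated counts of 32905 isoforms were summed to 22063 genes through sequence names and transcript IDs of the Ensembl annotation, with 316 isoforms left unmatched, and rounded. The age, genotype and interaction terms were fitted on 14577 genes that passed filterByExpr over all 12 libraries (edgeR 4.0.16, glmQLFit and glmQLFTest, TMM, R 4.3.3), with Benjamini-Hochberg adjustment over all genes and calls at adjusted p under 0.1. Overlap means that library ranges of 2 groups met. The named members were the 10 highest by TPM, up to 6 called members per direction and comparison with the largest change, and members with a published role, 43 in all. The called members also had at least 1 CPM in the highest group and, except for the interaction, no overlap. Members, marker genes and lists were chosen with earlier results of these data known. DESeq2 1.42.0, limma 3.58.1 on log2(TPM + 0.5), other filters, scalings, isoforms and each library left out were alternatives. The method was tested on simulated counts with age and genotype changes and the same spread for every gene. No interaction was simulated, so the recovery of interaction calls was not tested. Same-numbered replicates were not taken as pairs. The grouping of members by sugar-binding motif was not run.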

Additional observations from a re-analysis of the deposited data

Results flagged for a closer look

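The age change in fog-2 differed from that in wild type by the interaction test for 22 named members, given here as the change in fog-2 minus that in wild type on the log2 scale. Above 0 were clec-209 (2.71 for each copy), clec-65 (2.53), clec-97 (2.50), clec-53 (2.43), clec-85 (2.43), clec-54 (2.41), clec-210 (2.38), clec-50 (2.33), clec-63 (1.93), clec-66 (1.82), clec-62 (1.75), clec-186 (1.69), clec-1 (1.64) and clec-49 (1.57). Below 0 were clec-42 (-7.38), clec-17 (-5.27), clec-180 (-3.55), clec-266 (-3.28), clec-78 (-2.83), clec-86 (-1.94) and clec-196 (-1.28). Of these 22 calls, 5 were kept without any 1 library, and those of clec-17, clec-62 and clec-78 were lost in 11 of the 12 fits that each left out a library. The value of clec-78 was -4.48 without replicate 3 of wild type on day 1. The value of clec-42 depends on the prior count, since it had no count in wild type on day 1.

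Of 25 genes that RefSeq lists as clec pseudogenes, which no comparison above used, 15 had more than 3 counts over the 3 libraries of at least 1 group, the limit that a count of 0 allows. Their counts over the highest group were 21 for clec-44 and clec-30, 18 for clec-155, 14 for clec-159, 13 for clec-154, 11 for clec-23, 10 for clec-152, clec-77 and clec-220, 5 for clec-131 and clec-192, and 4 for clec-120, clec-69, clec-211 and clec-235. The highest count of a pseudogene in any library was 12.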

How the results depend on the processing

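The 108 named calls kept their direction under every setting in which they were refitted. Of 2351 alternative values, 2054 kept the call and 297 lost it. The replicate block, fitted although same-numbered replicates were not shown to be pairs (correlations of -0.131 to 0.159, 4 of 18 above 0.1), lost 8 of the 108 and gave 41 members lower with age in wild type, 31 in fog-2 and 15 in fog-2 on day 1. The counts that moved by more than 1.5 times were as follows, and the cause was not tested. Age in wild type had 25 higher with library totals, where the main count was 16. Age in fog-2 had 8 to 18 higher without any 1 library. On day 1, the 8 higher became 4 with isoforms, 3 in a fit of only the libraries compared, 4 at adjusted p under 0.05 and 3 to 10 without any 1 library. The 20 lower became 9 with isoforms, 11, 11 and 12 with limma on log2(TPM + 0.1), (TPM + 0.5) and (TPM + 1), 3 with only the libraries compared, 9 at 0.05 and 6 to 30 without any 1 library. On day 6, the 9 higher became 5 with isoforms, 17 with only the libraries compared, 5 at 0.05 and 3 to 18 without any 1 library, and the 7 lower became 2, 11, 4 and 3 to 10 in the same order, and 11 with limma on log2(TPM + 0.5). For the interaction, the 21 above 0 became 5 with isoforms, 10 at 0.05 and 6 to 32 without any 1 library, and the 9 below 0 became 1 with isoforms, 14 with each of the 3 limma fits, 2 at 0.05 and 2 to 10 without any 1 library. Counting the 2 copies of clec-209 once, an alternative chosen after seeing the data, lowered the counts that held them by 1. With 3 libraries per group and members below 1 CPM, small changes were not detectable at this depth, and p-values measure the spread between these populations only.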
